A study of Mus musculus with 24 samples.

Results

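Npas4 is a bHLH-PAS protein that regulates transcription, and calcium entry into a neuron quickly switches on its own gene. It pairs with Arnt-type partners, binds DNA and controls programmes of activity-dependent transcription that differ between kinds of neuron, with effects on inhibitory synapses and on the inputs that inhibitory neurons receive. Neurons of the medial ganglionic eminence (MGE), a ventral forebrain germinal zone, become inhibitory cells that make GABA, among them the somatostatin and parvalbumin interneurons of the cortex. Genes that depolarization induces fall broadly into a rapid wave of transcription factors and a later wave of channels, secreted proteins and synaptic proteins that those factors help to control.

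The comparison described here is KO against WT in MGE cultures after 6 h of depolarization. It rests on 4 of the 24 arrays of the series, 2 from Npas4 KO cultures and 2 from Npas4 WT cultures, taken by their titles. Cultures of both genotypes came from embryonic day 14 littermates on the C57Bl/6 background, and all had been silenced overnight with tetrodotoxin, a sodium channel blocker, and AP-5, an NMDA receptor blocker, before KCl was raised to 55 mM. The sample labels put the depolarization on day 10 in culture, whereas the series text counts 9 days of culture before the silencing. Whether the 2 arrays of a group came from separate litters or dishes is not given in the sources used here. Nor is the design of the deleted allele given. The p-values measure the spread between arrays of the same group, pooled over all 24 arrays, and part of it may be technical. The other arrays compared by genotype are KO and WT MGE cultures at 0 h and 1 h and KO and WT cortical (CTX) cultures at 6 h, again with 2 arrays each. The CTX arrays at 0 h and 1 h are not tested by genotype here, but they enter the estimate of the spread and the filter.

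The label of the cells was checked against marker genes. All 9 measured markers of MGE-derived inhibitory neurons, including the GABA-synthesizing enzymes Gad1 and Gad2, the vesicular GABA transporter Slc32a1, the lineage factor Lhx6 and the peptides Sst and Npy, lay above the array median in all 4 arrays. All 5 markers of cortical excitatory neurons lay below it in all 4 arrays, and so did all 4 markers of cholinergic and striatal neurons. These are short sets of defining markers. In longer lists, which hold genes that inhibitory neurons also express, 5 of 16 excitatory genes lay above the median in all 4 arrays and 8 below, and 10 of 17 striatal and cholinergic genes above and 6 below, Cux2 and Bcl11b being among the excitatory genes above it and Isl1 and Lhx8 among the striatal and cholinergic ones. Slc17a6, a vesicular glutamate transporter, read 7.93 and 3.92 in KO against 8.05 and 3.75 in WT, high in repeat 1 and low in repeat 2 of each genotype. These 5 genes are named after their values were seen. Markers of other cells were measured too: 4 of 5 astrocyte markers and 4 of 4 progenitor markers lay above the median in all 4 arrays, with 2 of 4 measured oligodendrocyte-lineage, 2 of 5 microglial and 2 of 5 vascular markers. The mean log2 intensity of the inhibitory list was 12.29 and 12.2 in the KO arrays and 12.28 and 12.17 in the WT arrays. The astrocyte list stood at 9.39 and 9.64 in KO against 9.73 and 9.62 in WT, and the progenitor list at 9.45 and 10.06 in KO against 9.21 and 9.8 in WT. The microglial list stood at 6.94 and 6.58 in KO against 7.26 and 6.65 in WT. In each of these lists the KO and WT arrays overlapped. Matched by repeat number, however, the progenitor list was higher and the microglial list lower in KO in each match. The inhibitory list was slightly higher in KO in each match, and the astrocyte list changed direction between matches. The part of other cells in the results was not tested. At 6 h, 254 genes lay over 2-fold apart between the KO repeats and 288 between the WT repeats. The WT repeats of MGE cultures at 0 h stood further apart, with 1507 such genes. Sex-linked genes also differed between the repeats at 6 h. Xist read 12.41 and 11.31 in KO against 11.99 and 9.37 in WT (1.18 ± 0.88, SE of the fit). Eif2s3y read 9.87 and 11.48 in KO against 10.96 and 11.6 in WT (-0.61 ± 0.62). Of 4 sex-linked genes tested, 0 were called, and the part of embryo sex in the results was not tested. RNA of the whole culture was measured, so fewer cells of a type and less RNA per cell cannot be told apart.

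Limma tests (two-sided) across 12378 genes, adjusted by Benjamini-Hochberg, called 4 genes lower in KO at an adjusted p under 0.05, which is 0.0323% of the genes tested, and 0 genes higher. The 4 were Npas4, Adam11, Zfyve28 and Osgin2. Without adjustment, 302 genes (2.44%) were lower and 62 (0.501%) higher at a p under 0.05, and 96 (0.776%) were lower and 4 (0.0323%) higher at a p under 0.01. The median difference over all genes tested was -0.02 on the log2 scale. A log2 difference below -1 was measured for 32 genes (0.259%) and one above 1 for 8 (0.0646%). The calls rested on particular arrays: 0 genes were called without WT repeat 1 or without KO repeat 2, against 5 without KO repeat 1 and 5 without WT repeat 2. In a fit of the 12 MGE arrays alone Zfyve28 and Adamtsl1, which is named here after its value was seen, were called, and in a fit of the 4 arrays alone 0 were.

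**Figure D1:**
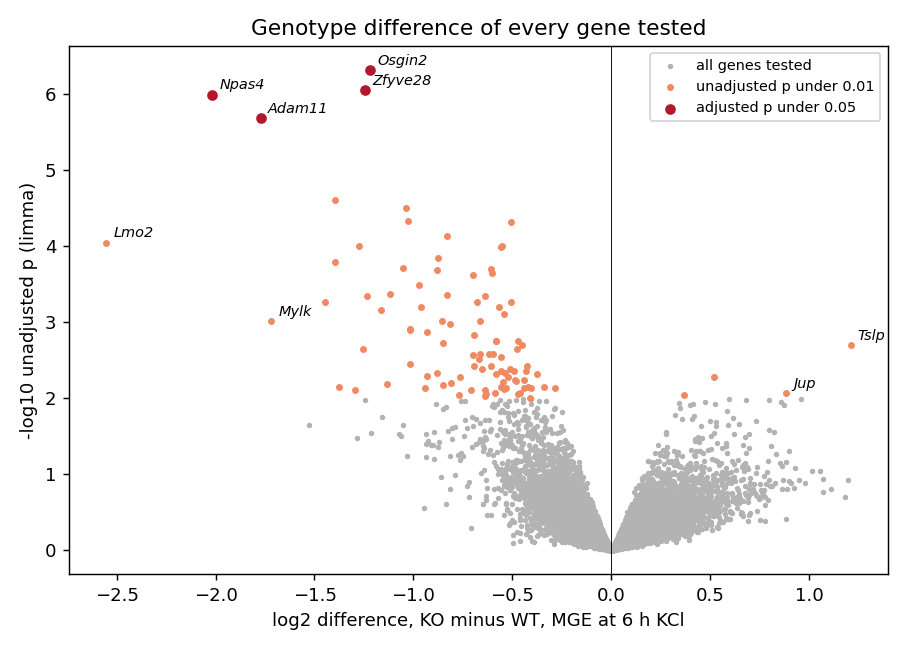
Difference between KO and WT MGE cultures at 6 h of KCl for each of the 12378 genes tested, as log2 intensity in KO minus WT (x axis) against -log10 of the unadjusted limma p (y axis), with 2 arrays a genotype. Dark red points are the 4 genes called, all lower in KO, and orange points are genes at an unadjusted p under 0.01, of which 96 were lower and 4 higher with the called genes included.

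Npas4 itself checks the labels. Its log2 intensity was 7.07 and 6.8 in the KO arrays at 6 h, against 9.32 and 8.59 in the WT arrays. The genotypes did not overlap, and Npas4 fell by 2.02 ± 0.25 (SE of the fit, n = 2 arrays each) in KO, which is 4.05-fold lower (limma, adjusted p = 0.0043). The gap had been wider at 1 h, at 7.35 and 7.0 in KO against 12.04 and 11.2 in WT, a difference of -4.45 ± 0.25 (adjusted p = 4.2e-07). At 0 h the arrays lay at 5.67 and 5.35 in KO and 5.7 and 5.84 in WT, a difference of -0.26 ± 0.25 that did not pass. The array has 1 probe set for Npas4, and whether it lies within the deleted stretch is not given in the sources used here, so the signal left in KO does not show whether working Npas4 remained.

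Adam11 belongs to the ADAM family of membrane proteins but lacks protease activity, and in the mouse cerebellum it is needed to place potassium channels at basket cell terminals. It had 8.18 and 7.84 log2 units in KO, against 9.77 and 9.79 in WT. Both KO arrays lay well below both WT arrays, and Adam11 fell by 1.77 ± 0.23, or 3.41-fold (limma, adjusted p = 0.0065). A second probe set of the gene read 6.82 and 6.56 in KO against 7.98 and 7.88 in WT, a difference of -1.24 ± 0.23.

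Zfyve28, an endosomal FYVE-domain protein that restrains EGF receptor signalling, had 6.85 and 6.82 in KO against 8.16 and 8.01 in WT. It fell by 1.25 ± 0.15, or 2.37-fold (adjusted p = 0.0043), and the KO arrays agreed closely with each other. Osgin2, related to a growth inhibitor induced by oxidative stress, had 10.1 and 10.05 in KO against 11.5 and 11.09 in WT. It fell by 1.22 ± 0.14, or 2.33-fold (adjusted p = 0.0043), without overlap. Its other 2 probe sets differed by -1.37 ± 0.2 and -0.74 ± 0.16.

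Arrays can also be matched by repeat number, although the labels do not say what a number stands for. Between arrays of repeat 1, KO minus WT was -2.25 for Npas4, -1.59 for Adam11, -1.31 for Zfyve28 and -1.4 for Osgin2. Between arrays of repeat 2 it was -1.78 for Npas4, -1.95 for Adam11, -1.18 for Zfyve28 and -1.04 for Osgin2. Each gene was lower in KO by more than 1 log2 unit in each match.

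**Figure D2:**
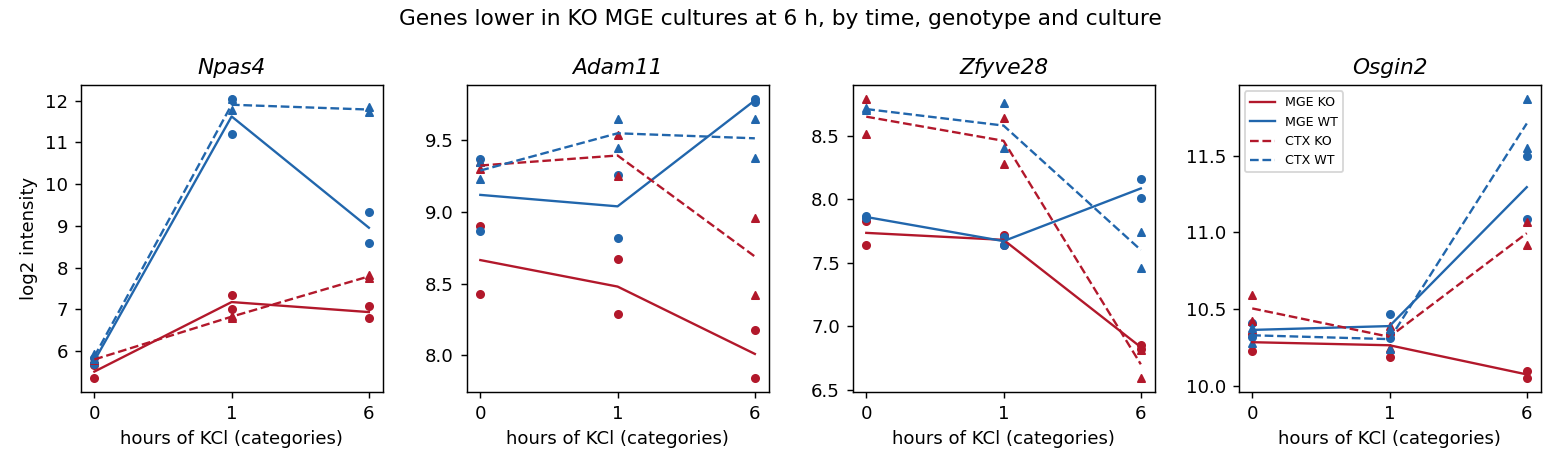
Log2 intensity (y axis) of Npas4, Adam11, Zfyve28 and Osgin2 at 0, 1 and 6 h of KCl (x axis, drawn as evenly spaced categories) in KO (red) and WT (blue) cultures, with circles and solid lines for MGE and triangles and dashed lines for CTX. Points are single arrays and lines join the means of 2 arrays; in MGE cultures Zfyve28 and Osgin2 are furthest apart by genotype at 6 h, as is Adam11, whose genotypes do not overlap at 1 h either, and Npas4 is furthest apart at 1 h.

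The genes reached these levels along unlike courses. In MGE KO cultures Osgin2 stood at 10.34 and 10.23 before KCl, 10.19 and 10.34 after 1 h and 10.1 and 10.05 after 6 h, whereas in WT cultures it stood at 10.41 and 10.32, then 10.47 and 10.31, then 11.5 and 11.09. The WT level was higher at 6 h than at either earlier time and the KO level was not. Zfyve28 in KO was 7.83 and 7.64 before KCl, 7.72 and 7.64 after 1 h and 6.85 and 6.82 after 6 h, against 7.85 and 7.87, then 7.7 and 7.64, then 8.16 and 8.01 in WT. Here the KO level at 6 h lay below all other MGE arrays. Adam11 in KO was 8.9 and 8.43 before KCl, 8.67 and 8.29 after 1 h and 8.18 and 7.84 after 6 h, against 8.87 and 9.37, then 9.26 and 8.82, then 9.77 and 9.79 in WT, so the WT arrays lay higher and the KO arrays lower at 6 h than at 0 h. The Adam11 arrays already stood apart at 1 h, with a difference of -0.56 ± 0.23 (adjusted p = 0.8).

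The falls were filled up to 15 named genes with the largest differences at an unadjusted p under 0.01 whose arrays did not overlap. Of all genes tested, 24.8% were lower without overlap, so the lack of overlap alone says little. The 11 added genes did not pass adjustment, and their values are given as such. For 7 of the 15 genes the array held further tested probe sets, and all 9 of these were lower in KO. KO minus WT across the 15 genes ran from -2.5 to -0.97 between arrays of repeat 1 and from -2.61 to -0.71 between arrays of repeat 2.

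Among regulators of transcription, Lmo2, a LIM-domain adaptor of transcription complexes best known from blood cell development, had the widest difference of all genes tested. It read 7.33 and 6.26 in KO against 9.83 and 8.87 in WT, a difference of -2.55 ± 0.48 (adjusted p = 0.098). The spread between repeats was large in each genotype. Foxp4, a forkhead factor, read 8.81 and 8.98 in KO against 10.42 and 9.7 in WT, a difference of -1.16 ± 0.27 (adjusted p = 0.27).

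Several of the genes encode signalling and membrane-remodelling proteins. Mylk, the calcium- and calmodulin-dependent kinase of myosin light chain, read 8.74 and 9.23 in KO against 10.75 and 10.66 in WT, a difference of -1.72 ± 0.42 (adjusted p = 0.34). With the mean of its probe sets, 2 of which were too dim to be tested, the difference was smaller (-0.95). Tyro3, a receptor tyrosine kinase of the TAM family, read 9.27 and 8.62 in KO against 10.24 and 9.92 in WT (-1.14 ± 0.36). Stac, an adaptor that binds voltage-gated calcium channels, read 9.06 and 8.63 in KO against 10.37 and 9.91 in WT (-1.3 ± 0.42). Each separated the genotypes without passing the test. Pacsin3, an F-BAR protein of endocytosis, read 7.23 and 7.33 in KO against 8.52 and 8.55 in WT (-1.25 ± 0.34), and Dipk1a, of the divergent protein kinase domain family, 10.17 and 10.07 in KO against 11.42 and 11.29 in WT (-1.24 ± 0.27). The arrays of each genotype lay close together for both genes.

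The remaining named falls were of enzymes and transporters. Hs3st2, which adds sulfate to heparan sulfate chains, read 6.65 and 5.95 in KO against 7.96 and 7.39 in WT (-1.38 ± 0.44). Slc7a4, of the cationic amino acid transporter family, read 8.93 and 8.71 in KO against 10.14 and 10.3 in WT (-1.4 ± 0.28, adjusted p = 0.14). Tmem86a, a lysoplasmalogenase, read 9.42 and 9.53 in KO against 11 and 10.84 in WT (-1.45 ± 0.33). In these 3 the gap between genotypes exceeded the gap between repeats. Tmem94, a multipass membrane protein, read 7.98 and 8.18 in KO against 9.47 and 9.24 in WT (-1.28 ± 0.24, adjusted p = 0.098).

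**Figure D3:**
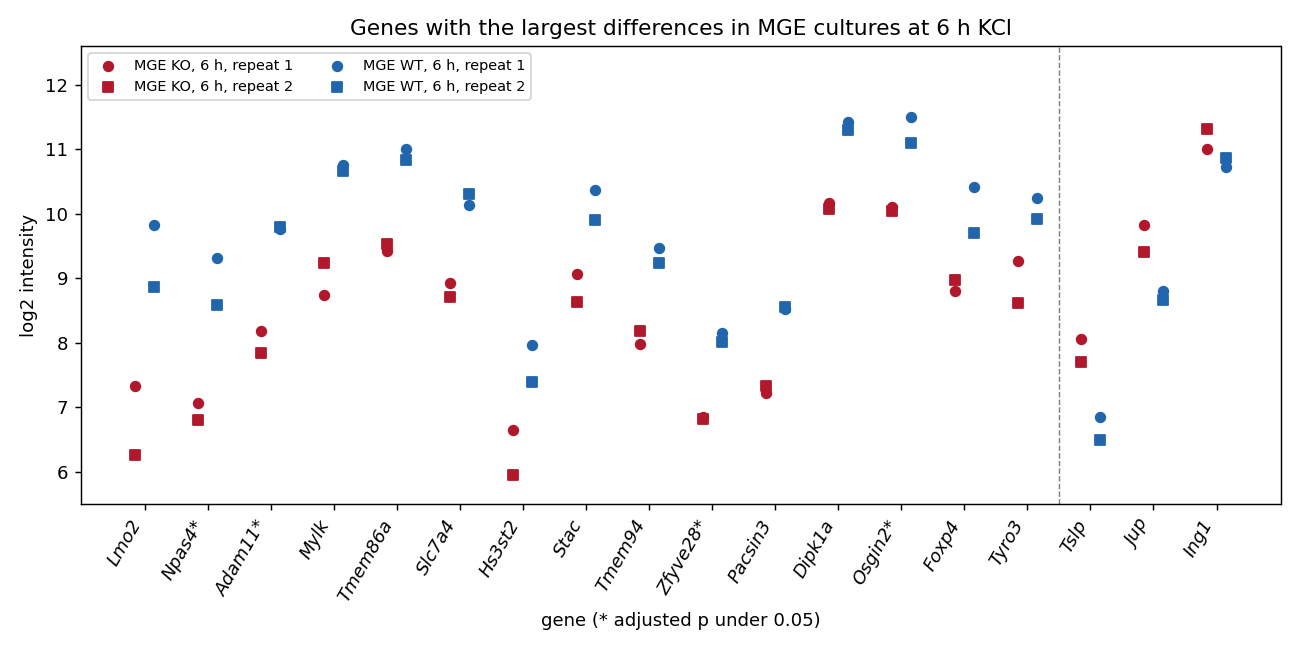
Log2 intensity (y axis) in the 2 KO (red) and 2 WT (blue) MGE arrays at 6 h for the 15 named falls, left of the dashed line and ordered by difference, and the 3 named rises, right of it. Circles are repeat 1 and squares repeat 2, an asterisk marks the 4 genes called, and the KO and WT points of no gene overlap, since the genes were chosen for that.

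Because Npas4 binds DNA with a bHLH-PAS partner, the start sites of the named falls were searched for short motifs. RefSeq promoters (GRCm38.p6, 250 bases before to 50 after the start of transcription) were at hand for 10 of the 15. The pentamer TCGTG, a core that Npas4 dimers are known to bind, occurred on either strand in 5 of the 10, namely Zfyve28, Stac, Mylk, Tmem94 and Tyro3. It occurred in 16% of all 32851 promoters of the table, in 24.8% of the 10016 tested genes with a promoter, and in 25 of 73 (34.2%) genes with a promoter among the 96 lower at an unadjusted p under 0.01. The E-box CACGTG occurred in 0 of the 10, against 11.6% of tested genes. The cyclic AMP response element TGACGTCA occurred in 1 (Hs3st2), against 3.64%, and the AP-1 element TGAGTCA, with TGACTCA on the other strand, in 1 (Mylk), against 4.24%. No motif contains another, and a match describes the letters and does not show binding. The promoters of Zfyve28, Stac and Mylk are shown as the called gene and the wide falls that held the pentamer. Capitals mark TCGTG or, on the other strand, CACGA. Zfyve28 lies on the minus strand at chr5:34288275-34288574 with a match starting at base -124 from the start site, Stac on the minus strand at chr9:111690299-111690598 with matches at -67 and 23, and Mylk on the plus strand at chr16:34784700-34784999 with a match at 11.
Zfyve28: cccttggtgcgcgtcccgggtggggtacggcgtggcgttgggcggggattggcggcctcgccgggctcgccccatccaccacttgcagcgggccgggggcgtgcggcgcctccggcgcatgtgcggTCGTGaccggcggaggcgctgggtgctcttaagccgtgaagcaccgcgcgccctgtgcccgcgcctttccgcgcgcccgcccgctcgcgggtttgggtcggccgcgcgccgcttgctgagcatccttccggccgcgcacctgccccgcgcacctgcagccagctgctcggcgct
Stac: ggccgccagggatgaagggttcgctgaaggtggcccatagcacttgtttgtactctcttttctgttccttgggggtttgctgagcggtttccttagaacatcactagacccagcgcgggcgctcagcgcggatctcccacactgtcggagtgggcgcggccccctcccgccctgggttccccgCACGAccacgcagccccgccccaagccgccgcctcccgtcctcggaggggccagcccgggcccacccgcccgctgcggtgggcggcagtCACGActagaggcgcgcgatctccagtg
Mylk: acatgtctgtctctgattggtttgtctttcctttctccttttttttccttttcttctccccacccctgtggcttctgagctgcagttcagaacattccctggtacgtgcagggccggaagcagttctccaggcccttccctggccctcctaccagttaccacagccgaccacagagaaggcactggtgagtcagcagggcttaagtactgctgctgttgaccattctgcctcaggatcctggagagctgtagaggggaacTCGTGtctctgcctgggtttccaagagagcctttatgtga

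Differences in the other direction were fewer and smaller in the fit described. Tslp, an epithelial-type cytokine that acts on dendritic cells, read 8.06 and 7.71 in KO against 6.85 and 6.5 in WT (1.21 ± 0.32, adjusted p = 0.54). Tslp exceeded the array median only in the MGE KO arrays at 6 h, so it passed the filter through the group where it was high. In each genotype its level was higher at 6 h than at the earlier times, which read 4.89 and 4.75 before KCl and 6.75 and 6.85 after 1 h in KO, against 4.67 and 4.38, then 6.06 and 6.3 in WT. Jup, the junction protein plakoglobin, read 9.82 and 9.41 in KO against 8.81 and 8.66 in WT (0.88 ± 0.29). Before KCl the difference of Jup was already 0.82 ± 0.29, which did not pass either, and 6 h less 0 h was 0.06 ± 0.41. Ing1, a chromatin reader, read 11.01 and 11.32 in KO against 10.72 and 10.87 in WT (0.37 ± 0.12), and another of its probe sets differed by -0.28 ± 0.24. None of the 3 passed adjustment, and 0 genes were called higher in KO, which does not show that no gene rose. Of all genes tested, 18.2% were higher in KO without overlap.

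Gene lists were read by count and median beside all genes tested, of which 4 were called and whose median was -0.02. At an unadjusted p under 0.05, 2.44% of all genes tested were lower and 0.501% higher, the shares that list counts stand beside. Across 41 lists holding 1033 genes, list medians ran from -0.23 to 0.15, and the lists with a called gene were late response genes (Osgin2), synaptic immediate early genes (Npas4) and bHLH-PAS factors and partners (Npas4). Of 24 rapid response factors tested, 0 were called, 2 were lower at an unadjusted p under 0.05 and the median was 0.09. Fos read 12.73 and 12.4 in KO against 12.75 and 12 in WT (0.19 ± 0.36, 95% interval -0.58 to 0.95), and Egr1 11.14 and 10.92 in KO against 11.08 and 10.76 in WT (0.11 ± 0.21, interval -0.35 to 0.56). The genotypes overlapped for both, as they did for Nr4a1 (0.16 ± 0.23) and Fosb (-0.02 ± 0.43). Atf3, a stress-responsive bZIP factor, read 8.96 and 7.79 in KO against 9.93 and 9.13 in WT (-1.16 ± 0.43), and Csrnp1, a nuclear factor induced with the early genes, 7.02 and 6.99 in KO against 7.84 and 7.74 in WT (-0.79 ± 0.31). Neither passed adjustment.

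Of 23 late response genes tested, 1 was called and the median was -0.12. At an unadjusted p under 0.05, 9 were lower and 0 higher, against 2.44% lower and 0.501% higher of all genes tested. Without overlap 11 were lower and 1 higher, against 24.8% lower and 18.2% higher of all genes tested. The list was chosen with earlier results of these data known, so these counts are not separate support. Nptx2, a secreted pentraxin that clusters glutamate receptors on interneurons, read 8.88 and 8.01 in KO against 10.1 and 9.84 in WT (-1.53 ± 0.6, adjusted p = 1). Rerg, a Ras-like growth inhibitor, read 8.71 and 8.74 in KO against 9.92 and 9.41 in WT (-0.94 ± 0.41). Sv2c, a synaptic vesicle protein, read 7.81 and 7.15 in KO against 8.93 and 8.08 in WT (-1.02 ± 0.26, adjusted p = 0.42). Their arrays did not overlap, and none passed. Among the rest of the list Crhbp, a binding protein of corticotropin-releasing hormone, overlapped between genotypes (0.07 ± 0.48). Frmpd3, a scaffold-type FERM and PDZ protein, read 5.57 and 5.2 in KO against 7.37 and 6.75 in WT but was too dim to be tested.

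Of 7 tested genes that other studies named as Npas4 targets, 0 were called and the median was -0.21. Besides Nptx2 the list holds Bdnf, a neurotrophin, which read 6.9 and 6.87 in KO against 7.7 and 7.65 in WT (-0.79 ± 0.45, adjusted p = 1), with 0.01 at the probe set of largest variance. Homer1, a postsynaptic scaffold, overlapped between genotypes at 0.06 ± 0.18. Syt10, of the same list, was too dim to be tested.

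Of 19 neuropeptide genes tested, 0 were called, 1 was lower at an unadjusted p under 0.05 and the median was -0.12. That gene was Gal, the precursor of galanin, at 6.25 and 6.03 in KO against 7.8 and 6.51 in WT (-1.02 ± 0.29, adjusted p = 0.81). The WT arrays lay far apart. Cort, encoding cortistatin, read 9.45 and 9.52 in KO against 10.21 and 10.02 in WT (-0.63 ± 0.65), and Sst overlapped (0.1 ± 0.29). Of 13 genes for neuropeptide receptors and binding proteins, 0 were called. At an unadjusted p under 0.05, 3 were lower, against 2.44% of all genes tested. Sstr4, a somatostatin receptor, read 9.14 and 8.81 in KO against 9.86 and 9.97 in WT (-0.94 ± 0.3), and Ntsr2, a neurotensin receptor that astrocytes also express, 5.79 and 5.95 in KO against 6.77 and 6.35 in WT (-0.69 ± 0.2). Ntsr2 lay below the array median in all MGE arrays and passed the filter through CTX arrays. Growth factors gave 0 calls among 22, with a median of 0.13, and Igf1 overlapped between genotypes (0.17 ± 0.65).

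Genes of GABA synthesis and transport showed no difference that passed: 0 of 8 were called or reached an unadjusted p under 0.05, and the median was 0.03. Gad1 read 13.06 and 13.08 in KO against 13.14 and 12.86 in WT, with an interval of the difference from -0.56 to 0.71. Slc32a1 read 12.88 and 12.79 in KO against 12.98 and 13.06 in WT, with an interval from -0.82 to 0.45. Lhx6 read 12.72 and 12.7 in KO against 12.74 and 12.74 in WT, with an interval from -0.62 to 0.56. These intervals leave room for moderate differences in either direction. Of 17 genes for GABA receptors and the inhibitory synapse, 1 was lower at an unadjusted p under 0.05, namely Gabrd, the delta subunit of extrasynaptic GABA-A receptors, at 10.26 and 10.48 in KO against 10.75 and 11.36 in WT (-0.69 ± 0.26, adjusted p = 1), and the median was 0.11. Before KCl the difference of Gabrd was already -0.7 ± 0.26, which did not pass either, and 6 h less 0 h was 0.02 ± 0.37.

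Of 36 potassium channel genes tested, 0 were called and the median was -0.02. At an unadjusted p under 0.05, 6 were lower and 0 higher, against 2.44% lower and 0.501% higher of all genes tested. Kcnd3, a pore subunit of the A-type current, read 12.39 and 12.32 in KO against 13.05 and 12.87 in WT (-0.61 ± 0.12, adjusted p = 0.14). Its partner Kcnip1, a calcium-binding auxiliary subunit of the same channels, read 10.72 and 10.68 in KO against 11.18 and 11.24 in WT (-0.51 ± 0.15, adjusted p = 0.86). Kcna1, a delayed rectifier subunit, read 9.73 and 9.66 in KO against 10.74 and 10.8 in WT (-1.07 ± 0.45). The repeats of these genes lay close together and the genotypes did not overlap. Of 23 sodium and calcium channel genes, 1 was lower and 2 were higher at an unadjusted p under 0.05: Scn3b, a sodium channel beta subunit, read 12.43 and 12.3 in KO against 11.98 and 11.69 in WT (0.52 ± 0.18), and Cacna1d, an L-type calcium channel pore subunit, 9.68 and 9.75 in KO against 9.33 and 9.24 in WT (0.43 ± 0.19). Neither passed adjustment.

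Of 32 genes of vesicle release, 3 were lower and 1 higher at an unadjusted p under 0.05, with 0 called. The shares of all genes tested at that p were 2.44% lower and 0.501% higher. Stx1a, a plasma membrane SNARE, read 12.55 and 12.34 in KO against 12.87 and 12.93 in WT (-0.45 ± 0.12, adjusted p = 0.54). Of 67 genes of axon guidance and adhesion, 4 were lower and 1 higher at that p, with 0 called and a median of 0.13. Flrt1, an adhesion protein, read 10.51 and 9.89 in KO against 11.36 and 10.9 in WT (-0.93 ± 0.23), and Plxna4, a semaphorin receptor, 11.06 and 11.1 in KO against 11.52 and 11.52 in WT (-0.44 ± 0.14). Both differences were larger than the gap between repeats and neither passed adjustment. In the extracellular matrix list the smallest adjusted p was that of Adamts5, a protease of aggrecan and other matrix proteoglycans, which read 8.57 and 8.09 in KO against 9.41 and 9.34 in WT (-1.04 ± 0.17, adjusted p = 0.066).

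**Figure D4:**
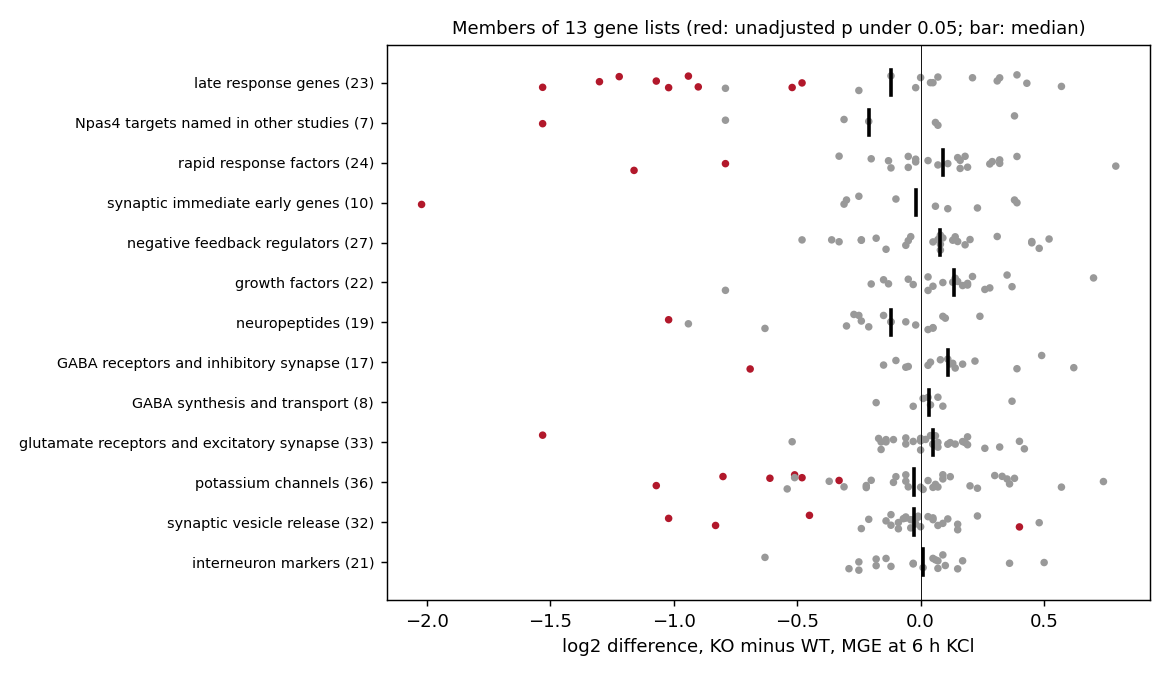
Difference between KO and WT MGE cultures at 6 h of KCl (x axis, log2 intensity, KO minus WT) for each tested gene of 13 gene lists, with the number tested in parentheses and a bar at each list's median. Red points are genes at an unadjusted p under 0.05. The late response list has 9 of 23 such genes, all below 0, and its median is -0.12 beside -0.02 for all genes tested. The lists were chosen with earlier results of these data known, so the counts are not separate support.

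The same genotype difference was measured at earlier times, in other arrays than those whose means give the 6 h difference, although all 24 arrays share the estimate of the spread behind each p. At 0 h 0 genes were called, although 2598 (21%) had an unadjusted p under 0.05, and at 1 h 3 were called lower (0.0242%), namely Npas4, Mup10 and a Riken gene. Of the 15 named falls, 0 were lower at an unadjusted p under 0.05 at 0 h, against 7.91% of all genes, and 2 (Npas4 and Adam11) at 1 h, against 0.905%. By any amount 12 of the 15 were lower in KO at 0 h, with Slc7a4 (-0.59 ± 0.28), Foxp4 (-0.54 ± 0.27) and Adam11 (-0.45 ± 0.23) nearest to that threshold. The test of the difference itself, KO minus WT at 6 h less KO minus WT at 0 h, called 0 genes (limma; 190, or 1.53%, at an unadjusted p under 0.05). Among the 15 it had an unadjusted p under 0.05 for 9: it was -1.14 for Osgin2 (95% interval -1.57 to -0.71, adjusted p = 0.31), -1.12 for Zfyve28 (-1.59 to -0.66, adjusted p = 0.52) and -1.32 for Adam11 (-2.02 to -0.61, adjusted p = 1). The 6 h arrays enter this test too, so it is not separate support. Without MGE WT 0 h repeat 1, of the pair of arrays that stood apart, this test called 693 genes and the 0 h comparison 3878. The 1 h calls dropped to 1 without WT repeat 1, WT repeat 2 or KO repeat 1 of that time.

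The CTX differences at 6 h come from other arrays than the MGE ones, but their p-values use the same estimate of the spread per gene, so counts past a p in each are not separate tests. There 6 genes were called lower (0.0485%) and 0 higher. The count was 129 without CTX WT repeat 1, 2 without CTX KO repeat 1 and 3 without CTX KO repeat 2. In the full fit Npas4 was the 1 gene called in MGE and CTX, which is 25% of the 4 and 16.7% of the 6. The CTX difference for Npas4 was -4.0 ± 0.25, on arrays reading 7.76 and 7.82 in KO and 11.73 and 11.84 in WT. Of the 96 genes lower in MGE KO at an unadjusted p under 0.01, 84 (87.5%) were also lower by any amount in CTX KO, against 54.7% of all genes tested. At an unadjusted p under 0.01 in each, 33 were lower in both, 34.4% of the 96 and 27.7% of the 119 in CTX (0.961% of all genes). All 15 named falls were lower in CTX KO, 12 of them at an unadjusted p under 0.05 (2.57% of all genes), but the size differed from gene to gene. Zfyve28 read 6.59 and 6.81 in CTX KO against 7.74 and 7.46 in CTX WT (-0.9 ± 0.15, adjusted p = 0.05, not called), Osgin2 10.92 and 11.07 in CTX KO against 11.87 and 11.55 in CTX WT (-0.72 ± 0.14), and Adam11 8.42 and 8.96 in CTX KO against 9.65 and 9.38 in CTX WT (-0.82 ± 0.23). Tmem86a (-1.8 ± 0.33), Stac (-1.56 ± 0.42) and Lmo2 (-2.01 ± 0.48) had CTX differences near their MGE ones, whereas Hs3st2 (-0.22 ± 0.44), Tyro3 (-0.39 ± 0.36) and Dipk1a (-0.48 ± 0.27) did not reach an unadjusted p under 0.05 in CTX.

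The test of MGE minus CTX called 0 genes (limma; 154, or 1.24%, at an unadjusted p under 0.05), so no fall is shown to be particular to MGE cultures. Of the 15, 3 had an unadjusted p under 0.05: Npas4, less reduced in MGE by 1.98 (95% interval 1.23 to 2.74, adjusted p = 0.36), Adam11, more reduced in MGE (-0.95, -1.66 to -0.24, adjusted p = 1) and Osgin2 (-0.5, -0.93 to -0.07, adjusted p = 1). The 15, and the list genes that follow, were chosen by their MGE comparison at 6 h, whose arrays enter this test too. Their values here are therefore not separate support for a larger fall in MGE. Among list genes the interval for Sv2c ran from -2.1 to -0.55 (CTX difference 0.31 ± 0.26), that for Hdac4, a class IIa histone deacetylase (11.07 and 10.84 in MGE KO against 11.64 and 11.47 in MGE WT), from -1.21 to -0.22, and that for Kcnip1 from -0.99 to -0.08, all with an adjusted p of 1. For Lmo2 the interval ran from -1.98 to 0.9 and for Stac from -1.0 to 1.54, which allows a difference in either direction. With the probe set of largest variance the MGE difference of Hdac4 was -0.16.

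**Figure D5:**
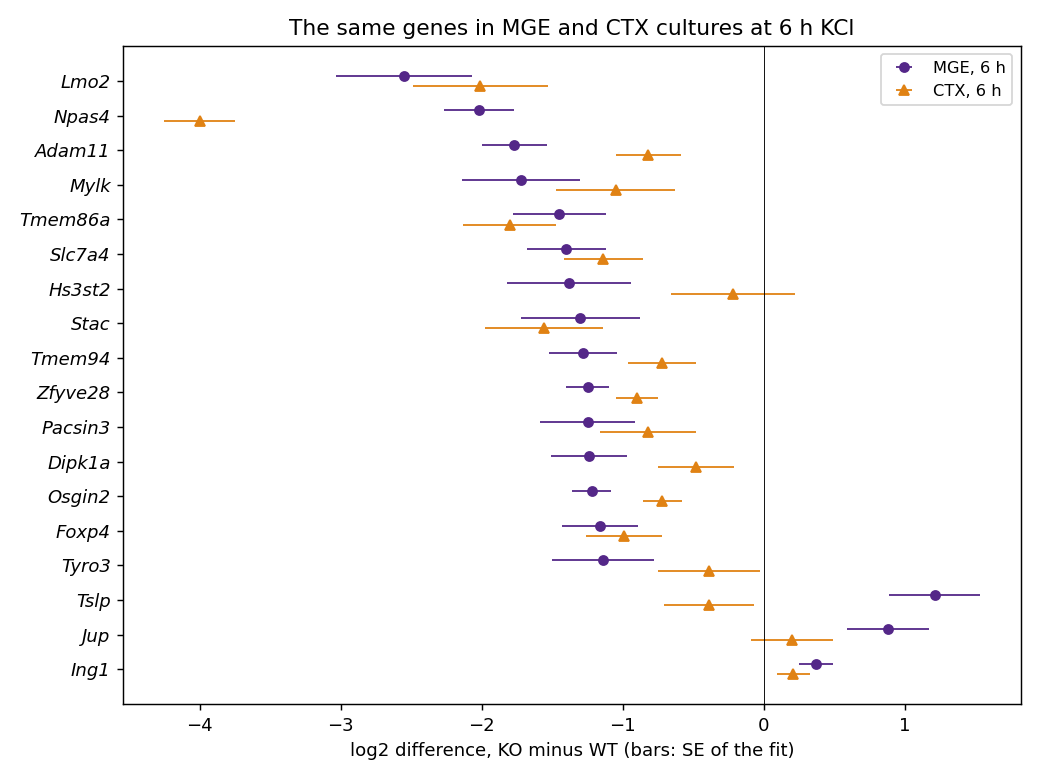
Log2 difference, KO minus WT, at 6 h of KCl (x axis) in MGE (circles) and CTX (triangles) cultures for the 15 named falls and 3 named rises of the MGE comparison (y axis), with bars of 1 SE of the fit and 2 arrays a group. All 15 falls lie below 0 in CTX too. Npas4 is further below 0 in CTX and Adam11 in MGE. Tslp lies on opposite sides of 0, but it was below the array median in all CTX arrays, where its difference was -0.39 ± 0.32.

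Genes near Npas4 on chromosome 19 were read as a group. Of 160 tested genes starting within 5 Mb, 0 were called and 2 (1.25%) had an unadjusted p under 0.05, against 2.94% of all genes, and their median difference was -0.1.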

How the data were processed

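Total RNA of each culture, 100 ng, was amplified (NuGEN Ovation V2) for hybridization to Affymetrix mouse arrays, per the labels' protocols. The authors deposited a linear intensity for each of 45101 probe sets, and the submitters' processing notes name RMA, a background correction, normalization between arrays and summary of probes that would hide a change common to most genes. Arrays have no read depth; their number sets the precision. Array medians were 115 to 121. No scan date or slide was used, since the sources used here give none.

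Intensities were converted to log2 here. A table of the platform's annotation gave 34958 probe sets 1 gene symbol, 932 several and 9211 none; 34754 matched RefSeq through Entrez identifiers and 0 symbols changed. The brightest probe set on average stood for each of 18194 genes, and 12378 genes exceeding the median of 2 or more arrays were tested. Of 3641 tested probe sets without a single gene, 0 were called. Limma 3.58.1 in R 4.3.3 fitted 12 group means to 24 arrays (12 residual and 2.408 prior degrees of freedom), with two-sided tests and Benjamini-Hochberg adjustment over 12378 genes. The fit was run on simulated data with independent noise in each array. That setting leaves out the differences that same-numbered arrays shared, so it does not test the p-values under them. A permutation of 2 against 2 arrays cannot go below p = 0.333, so it was not used.

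Genes eligible to be named were Npas4, the 15 called falls and rises with the largest non-overlapping differences, filled at an unadjusted p under 0.01, in each list up to 4 called genes (with none called, the 2 of smallest p), and a short set of activity-regulated and interneuron genes. Riken and Gm genes were counted, not named, and the text names a selection. The comparison, members and lists were chosen with earlier results of these data known. Alternatives covered the filter, probe set choice, normalization, arrays fitted, variance model, array weights, a replicate block and leaving out single arrays.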

Additional observations from a re-analysis of the deposited data

How the results depend on the processing

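With 2 arrays a genotype, leaving out WT repeat 1 or KO repeat 2 ended every call, and genes near the background of the array are measured with less precision. Genes called lower in KO at 6 h in MGE cultures numbered 4 in the fit described and 4 with quantile normalization or the stricter filter, 6 without a filter, with cyclic loess or with an intensity trend, 7 with the probe set of largest variance, 14 with the mean of a gene's probe sets, 40 with array weights, 2 with the 12 MGE arrays alone or quantile normalization within them, and 0 with the 4 arrays alone, a fit with few residual degrees of freedom. Leaving out 1 array gave 0 to 5. Genes called higher numbered 0 in all of these. Adam11, Npas4, Osgin2 and Zfyve28 were called in 10, 11, 11 and 13 of 16 alternatives and were lower in KO in all 16. Elsewhere the cause of a change was not tested.

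The fit with a replicate block called 10 genes lower, the 4 genes and 6 others, among them Lmo2, Mylk, Adamts5 and Kcnd3. Deviations from group means correlated above 0.1 for 13 of 15 pairs of same-numbered MGE arrays (-0.23 to 0.86, with 0.67 for KO and WT at 6 h). They did so for 15 of 15 CTX pairs, but for only 2 of 36 pairs across MGE and CTX (-0.39 to 0.2). Same-numbered arrays of a culture type thus shared differences, but the labels do not give the meaning of the 2 numbers. The numbers are therefore not taken to pair the arrays. The block gave 3 calls for MGE minus CTX and 38 for CTX at 6 h.

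The 6 h against 0 h test called 2 genes without a filter and 0 to 693 with 1 array left out. MGE minus CTX called 1 without a filter. CTX at 6 h called 14 without a filter, 16 with the mean of probe sets, 12 with quantile normalization, 13 with cyclic loess or an intensity trend, 1 with array weights, 0 with its own arrays and 2 to 129 with 1 array left out, the last without CTX WT repeat 1. MGE at 0 h called 0 to 3878 with 1 array left out. MGE at 1 h called 1 with the stricter filter, the 12 MGE arrays or quantile normalization within them, 0 with its own arrays, and 1 to 3 with 1 array left out.

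None of the genes that changed sign had passed the test. With the probe set of largest variance, KO minus WT was -0.28 for Ing1, 0.01 for Bdnf and -0.07 for Gad1. It was 0.03 for Fosb with cyclic loess and -0.01 for Homer1 with the mean of probe sets. With 1 array left out it ran from -0.19 to 0.56 for Fos, -0.76 to 0.71 for Fosb, -0.05 to 0.27 for Egr1, -0.26 to 0.58 for Nr4a1, -0.04 to 0.24 for Sst, -0.08 to 0.21 for Homer1, -0.26 to 0.39 for Crhbp, 0 to 0.34 for Igf1 and -0.07 to 0.21 for Gad1. Among genes that kept their sign, the probe set of largest variance gave -0.16 for Hdac4, -0.9 for Stx1a, -1.38 for Kcnd3, -1.54 for Flrt1 and 0.29 for Scn3b, and the mean of probe sets gave -0.47 for Csrnp1, -0.5 for Sstr4, -0.38 for Gabrd, 0.16 for Cacna1d, -0.63 for Adamts5 and -0.49 for Per2. At an unadjusted p under 0.01, 239 genes were lower and 61 higher with array weights, and 166 and 24 with the replicate block.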

Other observations

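Further gene groups are given here. Of 21 genes of the p53 and apoptosis list, 0 were called. Bid, a pro-apoptotic BH3-only protein, read 8.84 and 8.94 in KO against 9.41 and 9.57 in WT (-0.6 ± 0.12, limma, adjusted p = 0.15), and in CTX cultures, where it was called, the difference was -0.84 ± 0.12. Of 17 circadian clock genes, 0 were called, and Per2, a repressor of the clock, read 7.09 and 6.85 in KO against 8.33 and 7.38 in WT (-0.88 ± 0.31, adjusted p = 1). Of 19 genes of the oxidative stress response, 0 were called, and Gclc, the catalytic subunit of glutathione synthesis, read 7.92 and 8.45 in KO against 8.85 and 8.63 in WT (-0.56 ± 0.25, adjusted p = 1). Of 14 cytokine and chemokine genes, 0 were called, and Il21, a cytokine of T cells, read 7.61 and 7.22 in KO against 7.82 and 8.05 in WT (-0.52 ± 0.19, adjusted p = 1). Bid, Per2, Gclc and Il21 did not overlap between genotypes.

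Of 45 genes of the mitochondrial respiratory chain, 25 were lower in KO without overlap and 5 higher, against 24.8% lower and 18.2% higher of all genes tested, but their median difference was only -0.04 and 0 were called or reached an unadjusted p under 0.05. Of 34 chromatin and transcription regulators, 7 were lower and 14 higher without overlap, with a median of 0.03 and 0 called. Cytosolic ribosomal proteins, with 31 genes tested, had 10 lower and 5 higher without overlap and a median of -0.01. Hsd17b10, a mitochondrial dehydrogenase named here because it was called in CTX cultures, read 11.98 and 11.98 in KO against 12.49 and 12.58 in WT (-0.56 ± 0.11, adjusted p = 0.098).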
